A study of Mus musculus with 12 samples.

Results

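The DNA replication and G1/S genes described here are 49 mouse genes that were written down by name, from the licensing of replication origins to the enzymes that supply nucleotides and the regulators of the step from G1 to S phase. They were found by symbol in the count table of 3 Dkk3-null pancreatic tumor cell lines grown without or with recombinant DKK3 (rDKK3). All 49 were present once among the 57278 genes of the table, and all 49 passed the filter on low counts, which left 15214 genes. No member was chosen for its values, but the choice was made with results of these data known.

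In G1 phase, the origin recognition complex with Cdc6 and Cdt1 loads the Mcm2-7 helicase onto DNA, and in S phase Cdc45 and the GINS complex turn that helicase on. DNA polymerase alpha and primase start each strand, the polymerases delta and epsilon extend it around the sliding clamp Pcna, and lagging-strand fragments are trimmed by Fen1 and joined by Lig1. D-type and E-type cyclins release the E2F transcription factors from the Rb family, and many of the genes listed here are textbook E2F targets, which is why their RNA is commonly read as a sign of cells entering S phase. In bulk RNA a smaller share of cells in S phase and less RNA per cycling cell cannot be told apart.

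The cells were isolated from pancreatic tumors of DDKC mice, whose alleles include Dkk3 -/- and Ptf1a Cre/+, so that Cre is driven by Ptf1a in the pancreas. The Dkk3 allele is carried by every cell of the animal and lacks the exon with the signal for secretion, so the secreted form of DKK3 is the one removed. Untreated and rDKK3-treated samples share this genotype, and each line is 1 isolate. They are named A, B and C by the rank of the line numbers in the labels, lowest first. They were grown in DMEM with serum, and the labels give neither the concentration nor the duration of rDKK3 for the RNA samples. Each line and condition was sequenced in 2 libraries, 12 in all. Taken as plain repeats, the 2 libraries of a pair differed by more than the sampling noise of counts, with a mean deviance per degree of freedom of 1.53 over the members (at most 10.8 for one of them) and 6.43 over 12979 genes. With a shift per gene between the earlier and the later numbered libraries taken out, it was 0.757 over the members and 0.782 over the 12979 genes, less than the sampling noise, whereas the members' mean was 24.5 (median 6.12, at most 606 for one of them) when treated libraries were set against untreated ones of the same line. Because the part beyond that shift was within sampling noise, the 2 libraries were summed and counted as 1 sample, which gave 3 untreated and 3 treated samples paired by line.

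Total counts per library ranged from 7520741 to 24541083 without and from 3822987 to 11567095 with rDKK3, and 3 counts, the floor used here, corresponded to 0.127 to 0.759 CPM, in which counts are divided by the library total times its TMM factor. Dkk3 itself, counted over the whole gene, had at most 1 count in any library, so hardly any RNA of any form of it was counted. The mitochondrial share of the counts was 0.702% to 0.787% in the untreated and 1.08% to 1.38% in the treated samples, with no overlap, and its part in the values below was not tested. Summed, the 7 epithelial and ductal markers stood at 5699, 9787 and 5336 CPM in untreated lines A, B and C and at 4109, 8085 and 4249 CPM with rDKK3, lower in each line. Their members differed, with Krt7, Krt8, Krt18 and Krt19 lower and Sox9 higher with rDKK3 in each line. Cdh1 was higher in lines A and C and lower in line B, and Epcam stood at 0.411 to 2.05 CPM throughout. The part of these markers in the values below was not tested. The 8 fibroblast markers together reached at most 13.3 CPM without and 12.4 CPM with rDKK3. Col1a1 reached 11.2 CPM in untreated line A and Pdgfra 6.96 CPM in treated line B. Fap was at 0 and Col1a2, Dcn and Lum were below 1 CPM in every sample. The 5 leukocyte markers reached at most 23.3 CPM without and 38.1 CPM with rDKK3, both in line B, where Cd68 alone measured 23.2 and 38.1 CPM. Their sum was higher with rDKK3 in each line, with Adgre1 and Cd3e at 0. The 3 endothelial markers reached at most 15.3 CPM without and 17.4 CPM with rDKK3, nearly all of it Kdr. The 5 acinar markers reached 11.9 CPM at most, of which Cela1 was 11.8 CPM, with Cpa1, Amy2a5 and Ptf1a at 0 in every sample.

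The promoters of the members show what many of them share. In GRCm39, with the start of the GENCODE canonical transcript as position +1, the window from 250 bases before to 50 bases after the start was searched on both strands for the letters TTTCCCGC, TTTCGCGC, TTTGCCGC and TTTGGCGC, which are versions of the E2F element, and for CCAAT, the letters of the CCAAT box. The E2F letters were found in 18 of the 49 members (36.7%), against 2.82% of 21757 protein-coding promoters. CCAAT was found in 28 members (57.1%), against 39.9%. The letters TTTGAA, known as the CHR of mitotic promoters, were in 4 members (8.16%, against 17.1%), and CACGTG, the E-box, in 5 (10.2%, against 7.82%). A match is a description of the letters and does not show that a factor binds there. Other versions of the element and other positions were not searched, so a member without a match may still hold an E2F element.

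By role, 7 of the 10 origin licensing genes and 5 of the 8 G1/S control genes held the E2F letters, but 0 of the 5 nucleotide supply genes and 0 of the 4 chromatin and histone supply genes did. The 4 stretches of 160 bases just before the start are shown as examples with the E2F letters upstream, and their genes return in the results below. In these lines capitals mark the E2F letters and CCAAT on either strand, overlapping matches running together. They lie at chr16:15455265-15455424 (minus strand) for Mcm4, chr8:75835980-75836139 (plus strand) for Mcm5, chr1:128287453-128287612 (minus strand) for Mcm6 and chrX:92675814-92675973 (minus strand) for Pola1, each written 5′ to 3′ on the strand of its gene.
Mcm4: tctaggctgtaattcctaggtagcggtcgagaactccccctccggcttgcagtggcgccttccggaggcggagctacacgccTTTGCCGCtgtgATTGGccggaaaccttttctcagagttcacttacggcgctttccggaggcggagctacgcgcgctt
Mcm5: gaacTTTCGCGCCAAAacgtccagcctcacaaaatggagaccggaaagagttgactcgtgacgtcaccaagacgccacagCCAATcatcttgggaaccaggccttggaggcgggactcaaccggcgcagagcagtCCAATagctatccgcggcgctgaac
Mcm6: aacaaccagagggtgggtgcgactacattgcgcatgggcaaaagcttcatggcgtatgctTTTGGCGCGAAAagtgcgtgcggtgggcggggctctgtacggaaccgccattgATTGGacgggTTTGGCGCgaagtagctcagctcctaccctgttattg
Pola1: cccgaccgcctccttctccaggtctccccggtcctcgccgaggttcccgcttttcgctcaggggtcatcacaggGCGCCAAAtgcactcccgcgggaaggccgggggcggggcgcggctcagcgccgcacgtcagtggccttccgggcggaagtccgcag

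In further members the letters stand after the start, in the first bases of the transcript, and 26 bases around 1 site are shown for 6 of these: Mcm3 at chr1:20890501-20890526 (minus strand), Cdc6 at chr11:98798651-98798676 (plus strand), Cdt1 at chr8:123294772-123294797 (plus strand), Gins1 at chr2:150751496-150751521 (plus strand), E2f1 at chr2:154411792-154411817 (minus strand) and Dtl at chr1:191307648-191307673 (minus strand). Gins1 carries the letters in both directions, so that its capitals read as 1 palindrome.
Mcm3: acttccgtgGCGGGAAAacttgggaa
Cdc6: gctgaagtagagcggcTTTGGCGCga
Cdt1: gcgggaactaccttTTTGGCGCcatg
Gins1: ttgagcctaTTTGGCGCCAAAgcgag
E2f1: ggctctttcGCGGCAAAaaggatttg
Dtl: tgacgtcagTTTGGCGCggagtttgg

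Set side by side per length, the untreated level of the members spanned a wide range. Ccnd1, which encodes cyclin D1, stood at 277 ± 14.1 CPM per kb of transcript (SD, n = 3 lines), far above every other member. Pcna followed at 72.4 ± 24.4 CPM per kb, and Rrm2 (42.6 ± 13.8), Mcm6 (41.8 ± 14.3), Mcm7 (39.3 ± 7.70) and Tk1 (34.0 ± 1.09 CPM per kb) came next, within their spread of each other. The subunits Mcm2, Mcm4, Mcm3 and Mcm5 lay at 26.1, 15.7, 13.8 and 11.4 CPM per kb, although the helicase holds 1 copy of each. Orc1 was lowest at 0.943 ± 0.279 CPM per kb. Lengths are those of the canonical transcript, so a line that uses another isoform would shift these values.

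The first question was whether rDKK3 changed these genes in tumor cells from Dkk3-null mice. No member changed past the threshold over the 3 lines, while 42 of the 49 had a fitted log2 fold change below 0 (51% of all genes did) and their median was -0.23, against -0.01 for all 15214 genes tested. With cell line as a block, edgeR's quasi-likelihood test and Benjamini-Hochberg adjustment gave 0 members and 1 gene of the table (0.00657%), Lcn2, with an adjusted p under 0.05. By DESeq2, 0 members passed as well. With 3 pairs of samples, missing the threshold does not show that a gene was unchanged. At an unadjusted p under 0.05, 12 members were lower and 0 were higher, against 8.29% of all genes in either direction, 5.13% lower and 3.17% higher. In all 3 lines, 19 members were lower with rDKK3 (18.2% of all genes) and 0 were higher (14.7%).

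The median log2 fold change of the 49 members was -0.64, -0.13 and 0.01 in lines A, B and C, against -0.01, 0 and -0.04 for all genes. Line A had 46 members lower with rDKK3 (51.2% of all genes), line B had 40 (49.8%) and line C had 24 (53.7%). A log2 fold change below -0.5 was found for 30 members of line A (13.1%), 6 of line B (8.9%) and 4 of line C (18.2%). With 1 summed sample per line and condition there is no test within a line, and the 95% counting interval of each ratio, an exact binomial one that covers counting error only, lay below 0 for 41 members of line A (24.6%), 20 of line B (23.1%) and 17 of line C (31.4%). It lay above 0 for 0 members of line A (23.9%), 3 of line B (22.1%) and 12 of line C (25.4%). Counts of members lower or higher in a line, here and below, go by the sign of the summed values, also where the interval includes 0. Lower in line A and higher in line C at the same time were 25 members (24.3% of all genes). In 12 members (22.6% of all genes) a line was lower and another higher in both libraries, with counting intervals that excluded 0 on each side.

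**Figure D1:**
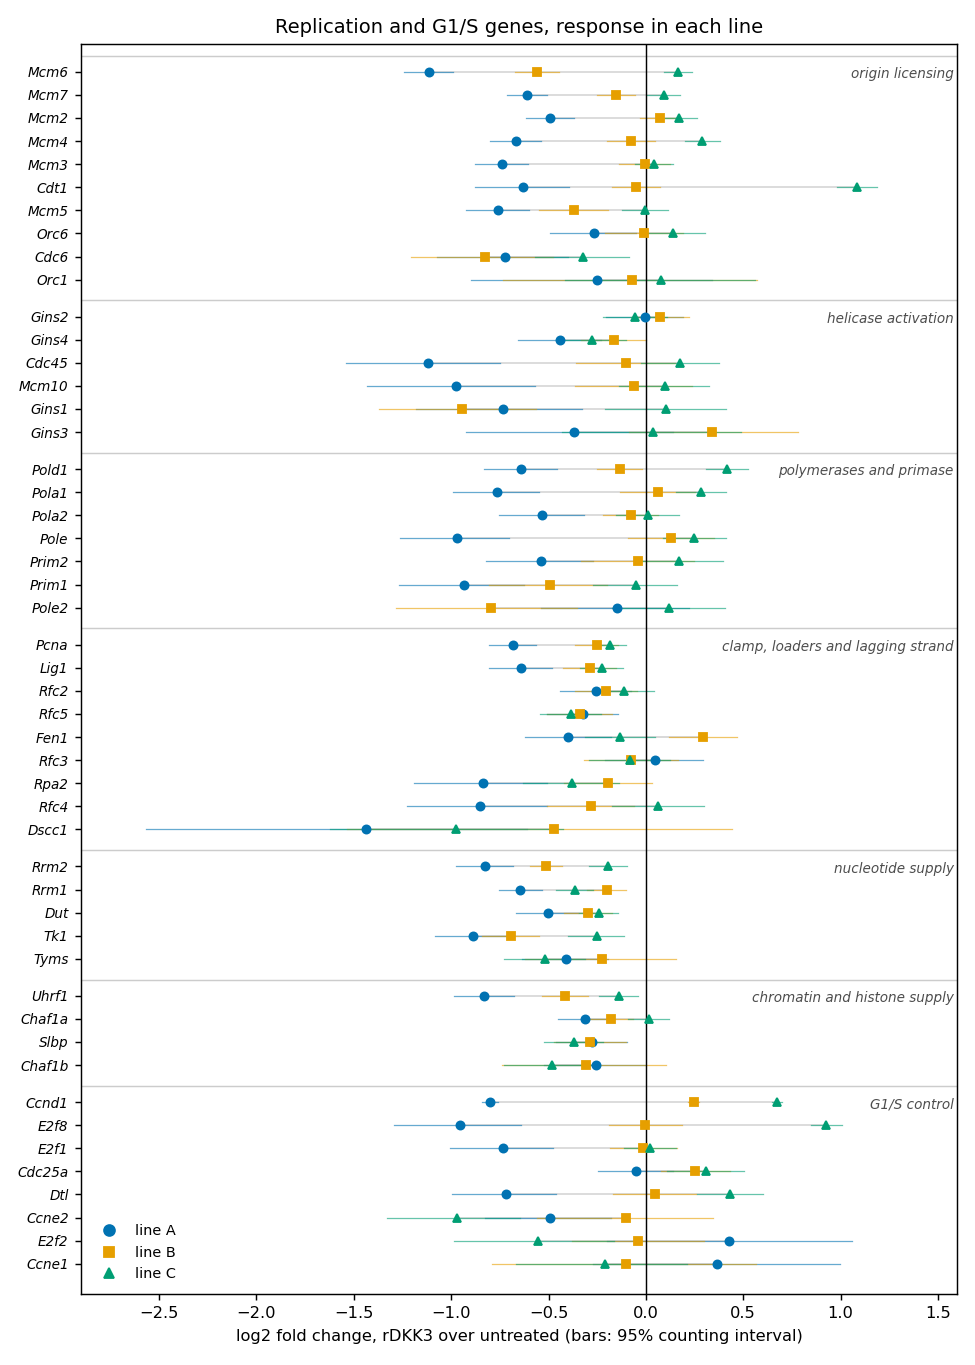
Each row is 1 of the 49 genes, in blocks by role, and the symbols give its log2 fold change (rDKK3 over untreated) in line A (circles), B (squares) and C (triangles), with the 95% counting interval as a bar. The circles lie left of 0 for 46 genes, while the triangles stand on both sides, 24 left and 25 right.

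Over the 49 members, the log2 fold changes of lines A and B had a Pearson r of 0.25 and a Spearman rho of 0.22, lines A and C -0.15 and -0.22, and lines B and C 0.33 and 0.49. These are descriptions across genes that share their libraries, and genes are not independent replicates. As sums, the members took 2895, 2655 and 3463 CPM in untreated lines A, B and C and 1816, 2641 and 4213 CPM with rDKK3. Ccnd1 alone weighed heavily in each sum, and without it the sums were 1899, 1602 and 2360 CPM without and 1245, 1392 and 2454 CPM with rDKK3.

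**Figure D2:**
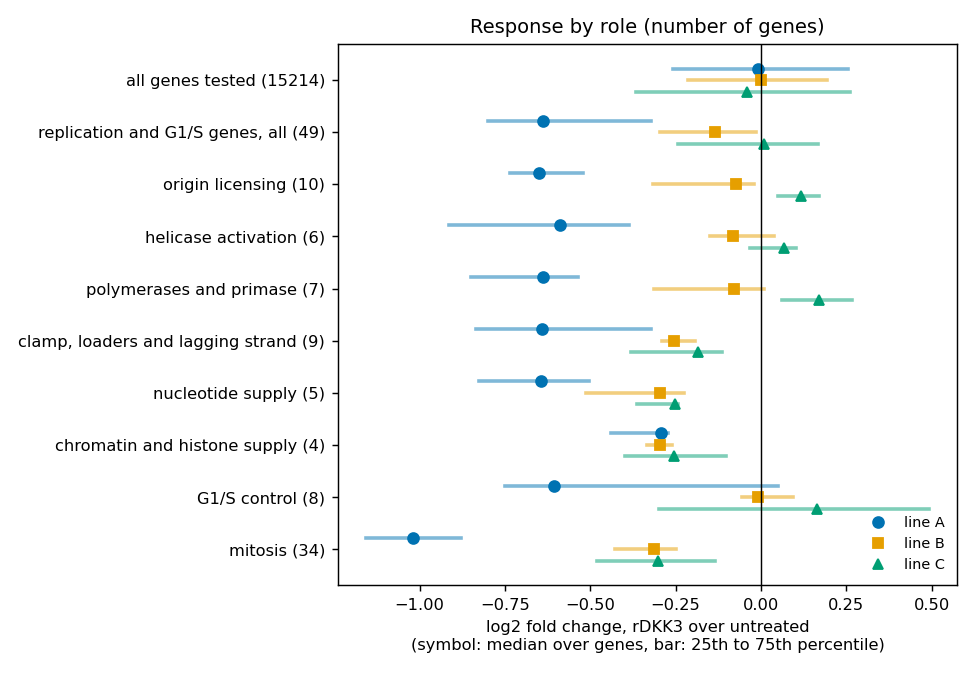
Median log2 fold change (symbols) and range from the 25th to the 75th percentile over genes (bars) in each line, for all genes tested, the 49 members, their 7 roles and the 34 mitosis genes. In line A the medians of the 7 roles lie between -0.65 and -0.29, and in line C they lie between -0.25 and 0.17.

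The origin licensing genes, which load the helicase in G1, had lower summed levels with rDKK3 in line A and mostly not in line C. Line A had 10 of the 10 members below 0, line B had 9 and line C had 2, and the median log2 fold changes were -0.65, -0.07 and 0.12. For Orc1 the counting interval in line A, -0.90 to 0.34, included 0. Mcm6 (ENSMUSG00000026355.12, chr1:128259327-128287401), a subunit of the Mcm2-7 helicase, had the highest average log2 CPM of the group, but Mcm7 stood above it in lines A and B in both conditions. Mcm6 measured 129, 79.5 and 164 CPM in untreated lines A, B and C and 59.7, 54.0 and 184 CPM with rDKK3. Its treated samples held the lowest levels, in lines A and B, and the highest, in line C, so the groups overlapped. The fitted log2 fold change was -0.50 with a standard error (SE) of 0.25 (adjusted p = 0.641, edgeR's quasi-likelihood test), and the values by line were -1.11, -0.56 and 0.17.

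The other helicase subunits repeated that order of the lines. Line A stood at -0.61 for Mcm7, -0.49 for Mcm2, -0.67 for Mcm4, -0.74 for Mcm3 and -0.76 for Mcm5 on the log2 scale. Line C stood at 0.09, 0.17, 0.29, 0.04 and -0.01 for the same genes. Mcm5 (ENSMUSG00000005410.7, chr8:75836197-75855067) went from 61.5, 29.5 and 66.1 CPM in untreated lines A, B and C to 36.3, 22.8 and 65.9 CPM with rDKK3, so that line C stood level. Its fitted log2 fold change was -0.38 (SE 0.17, adjusted p = 0.629, edgeR's quasi-likelihood test).

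The loading factors Cdc6 and Cdt1 had opposite signs in line C. Cdc6 (ENSMUSG00000017499.16, chr11:98798627-98814766), the ATPase that works with the origin recognition complex, was lower in all 3 lines. It measured 14.5, 8.98 and 18.8 CPM without and 8.77, 5.02 and 14.96 CPM with rDKK3, groups that overlapped because line C stood higher throughout. Its fitted log2 fold change of -0.62 (SE 0.18, adjusted p = 0.597, edgeR's quasi-likelihood test) was the furthest below 0 of the licensing genes. Cdt1 (ENSMUSG00000006585.4, chr8:123294754-123300293), which brings the helicase to the origin and must be removed in S phase, went the other way in line C. It measured 26.8, 52.5 and 50.5 CPM without and 17.3, 50.6 and 107 CPM with rDKK3. The values by line were -0.63, -0.05 and 1.08 on the log2 scale, with counting intervals of -0.88 to -0.40 in line A and 0.98 to 1.19 in line C. Over the lines its log2 fold change was 0.15 (SE 0.33, adjusted p = 0.903, edgeR's quasi-likelihood test).

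**Figure D3:**
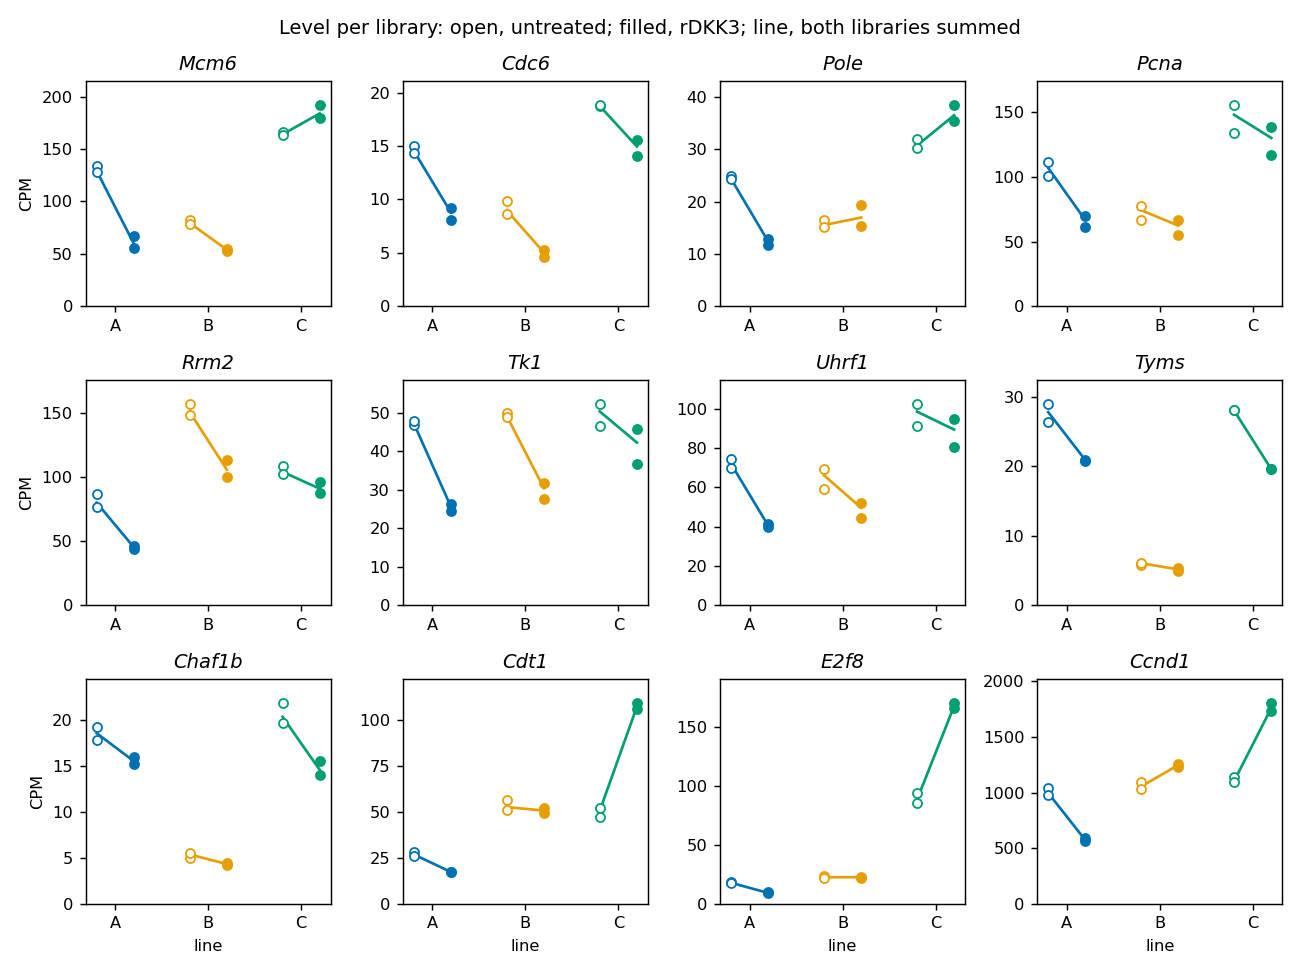
Level in CPM (vertical axes from 0) of 12 members in each of the 12 libraries, by line, with open symbols for untreated and filled symbols for rDKK3 libraries and a line joining the summed samples. In line A every filled pair lies below its open pair, and in line C Mcm6, Pole, Cdt1, E2f8 and Ccnd1 lie above it.

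Of the 6 helicase activation genes, line A had 6 lower, line B had 4 and line C had 2, but in line A the counting intervals of Gins2 (-0.21 to 0.19) and Gins3 (-0.92 to 0.14) included 0. Cdc45 (ENSMUSG00000000028.16, chr16:18599197-18630737), which joins the GINS complex on the loaded helicase, measured 13.5, 12.9 and 21.1 CPM in untreated lines A, B and C and 6.14, 11.99 and 23.8 CPM with rDKK3. The difference was in line A, at -1.12, while lines B and C gave -0.10 and 0.18 on the log2 scale. Its fitted value was -0.32 (SE 0.28, adjusted p = 0.760, edgeR's quasi-likelihood test).

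The 4 GINS subunits form 1 complex but gave different values. Gins2, the highest by average log2 CPM, measured 27.7, 34.6 and 34.8 CPM without and 27.6, 36.4 and 33.5 CPM with rDKK3, and its fitted log2 fold change was 0.0045 (SE 0.12). Gins1 (ENSMUSG00000027454.11, chr2:150747320-150773200) measured 9.30, 7.77 and 9.25 CPM without and 5.56, 3.995 and 9.94 CPM with rDKK3, lower in lines A and B and level in line C within its counting interval of -0.21 to 0.41. Its fitted value of -0.52 (SE 0.27, adjusted p = 0.648, edgeR's quasi-likelihood test) lay furthest below 0 in this group. Gins4 was 1 of 3 members whose treated samples all lay below the untreated ones (2.21% of all genes), with 30.5, 30.9 and 32.7 CPM without and 22.4, 27.5 and 27.0 CPM with rDKK3. The converse order was found for 0 members (2.14%).

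The replicative polymerases and primase were lower in line A in 7 of 7 members, with a median log2 fold change of -0.64, and higher in line C in 6 of 7, with a median of 0.17. Pold1, the catalytic subunit of polymerase delta and the highest of the group, measured 44.2, 64.7 and 63.0 CPM without and 28.4, 58.9 and 84.1 CPM with rDKK3. Pole (ENSMUSG00000007080.15, chr5:110434172-110485340), the catalytic subunit of polymerase epsilon, measured 24.4, 15.5 and 30.7 CPM without and 12.4, 17.0 and 36.5 CPM with rDKK3. For both genes line A was low and line C high among the treated samples, and the conditions overlapped. The fitted log2 fold changes were -0.11 (SE 0.22) for Pold1 and -0.18 (SE 0.27) for Pole, with adjusted p of 0.889 and 0.857 by edgeR's quasi-likelihood test.

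Prim1, the small primase subunit, was the member of this group with the fitted value furthest below 0. It measured 18.1, 10.9 and 20.4 CPM without and 9.46, 7.72 and 19.6 CPM with rDKK3. Its log2 fold change of -0.49 (SE 0.22, adjusted p = 0.623, edgeR's quasi-likelihood test) came from lines A and B, at -0.93 and -0.49, while line C was at -0.05 with a counting interval of -0.27 to 0.16. Pola1, the catalytic subunit of polymerase alpha, stood at -0.77, 0.06 and 0.28 in lines A, B and C.

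The sliding clamp, its loaders and the enzymes of the lagging strand were below 0 in median in every line. Each line had 8 of the 9 members lower, 6 were lower in all 3 lines, and the median log2 fold changes were -0.64, -0.25 and -0.19. Pcna (ENSMUSG00000027342.15, chr2:132091082-132095234) measured 107, 74.3 and 148 CPM without and 66.6, 62.4 and 130 CPM with rDKK3. Each line was lower with treatment, but the lines differed more among themselves than the conditions did, so the groups overlapped. The fitted log2 fold change was -0.37 (SE 0.14, adjusted p = 0.597, edgeR's quasi-likelihood test).

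Lig1, the ligase that joins Okazaki fragments, was lower in lines A, B and C, with log2 fold changes of -0.64, -0.29 and -0.23, as was Rfc5, a subunit of the clamp loader, with -0.32, -0.34 and -0.39. Rpa2, a subunit of the protein that coats single-stranded DNA, did not overlap between conditions, with 15.04, 16.8 and 18.8 CPM without and 8.38, 14.7 and 14.4 CPM with rDKK3. Dscc1, part of the alternative clamp loader that links replication to cohesion, had the fitted value furthest below 0 of all 49 members, -1.01 (SE 0.32, adjusted p = 0.597, edgeR's quasi-likelihood test). It was also among the least counted, with 3.07, 1.16 and 4.77 CPM without and 1.07, 0.81 and 2.38 CPM with rDKK3, which is 92, 27 and 167 against 11, 15 and 29 counts. The flap endonuclease Fen1 was the exception in line B, at 0.29 against -0.40 and -0.13 in lines A and C. Pcna has pseudogene rows in the annotation, Pcna-ps1 and Pcna-ps2, so a part of its reads may have been assigned to them or lost.

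The nucleotide supply genes were the 1 role in which every member pointed the same way in each line. All 5 were lower in all 3 lines (18.2% of all genes) and had an unadjusted p under 0.05 (5.13% of all genes in that direction), with median log2 fold changes of -0.65, -0.30 and -0.25 in lines A, B and C. Tk1 (ENSMUSG00000025574.14, chr11:117706352-117716918), the thymidine kinase of the salvage pathway, measured 47.3, 49.2 and 50.4 CPM without and 25.5, 30.4 and 42.3 CPM with rDKK3. The untreated lines lay close together, at 48.99 ± 1.57 CPM (SD, n = 3), the treated ones were lower and spread wider, at 32.8 ± 8.63 CPM, and the groups did not overlap. Its fitted log2 fold change was -0.61 (SE 0.16, adjusted p = 0.597, edgeR's quasi-likelihood test). Rrm2 (ENSMUSG00000020649.12, chr12:24758240-24764145), the S-phase subunit of ribonucleotide reductase, measured 80.0, 151 and 104 CPM without and 45.1, 106 and 91.0 CPM with rDKK3. Its fitted value was -0.51 (SE 0.15, adjusted p = 0.597, edgeR's quasi-likelihood test), with -0.82, -0.51 and -0.19 in the 3 lines.

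Rrm1, the large subunit of the same enzyme, stood at -0.65, -0.20 and -0.36 in lines A, B and C. Dut, which removes dUTP, measured 55.3, 59.3 and 97.2 CPM without and 39.0, 48.3 and 82.2 CPM with rDKK3 (fitted log2 fold change -0.35, SE 0.11, adjusted p = 0.597, edgeR's quasi-likelihood test). Tyms, which makes thymidylate, measured 27.8, 6.01 and 28.0 CPM without and 20.9, 5.13 and 19.6 CPM with rDKK3. Line B stood far below the others in both conditions, and the fitted value was -0.39 (SE 0.15, adjusted p = 0.601, edgeR's quasi-likelihood test). A pseudogene row, Tyms-ps, may share reads with Tyms.

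The 4 genes of chromatin and histone supply were lower in lines A and B in 4 of 4 and in line C in 3 of 4 members. Uhrf1 (ENSMUSG00000001228.15, chr17:56610321-56630486), which recruits the maintenance DNA methyltransferase to newly copied DNA, measured 71.96, 66.1 and 98.6 CPM without and 40.5, 49.6 and 89.4 CPM with rDKK3. The fitted log2 fold change was -0.46 (SE 0.16, adjusted p = 0.597, edgeR's quasi-likelihood test), and line A again held the lowest treated level. Slbp, which binds the stem-loop of histone mRNAs, stood at -0.28, -0.29 and -0.37 in the 3 lines. Chaf1b, a subunit of the histone chaperone CAF-1, measured 18.5, 5.37 and 20.3 CPM without and 15.5, 4.32 and 14.5 CPM with rDKK3, with line B far below the others in both conditions, as for Tyms. Its fitted value was -0.35 (SE 0.16, adjusted p = 0.623, edgeR's quasi-likelihood test).

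Among the 8 G1/S control genes, Ccnd1, E2f8 and Dtl were lower in line A and higher in line C with counting intervals that excluded 0 in both. Ccnd1 (ENSMUSG00000070348.6, chr7:144483668-144493662) measured 996, 1053 and 1103 CPM in untreated lines A, B and C and 572, 1248 and 1759 CPM with rDKK3. The untreated lines lay close together, with an SD of 53.6 CPM (n = 3), and the treated ones spread on both sides of them, with an SD of 596 CPM. The log2 fold changes by line were -0.80, 0.24 and 0.67, with counting intervals of -0.84 to -0.76, 0.22 to 0.27 and 0.65 to 0.70, and both libraries of each line gave the same sign. Over the lines the fitted value was 0.04 (SE 0.30, adjusted p = 0.971, edgeR's quasi-likelihood test).

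E2f8 (ENSMUSG00000046179.18, chr7:48516177-48531344), an atypical E2F that represses E2F targets in S phase, gave the widest spread of all. It measured 17.8, 22.5 and 88.1 CPM without and 9.16, 22.5 and 168 CPM with rDKK3. The values by line were -0.95, -0.0022 and 0.93 on the log2 scale, a fitted value of 0.04 (SE 0.36, adjusted p = 0.979, edgeR's quasi-likelihood test). E2f1, the activator that drives S-phase genes, stood at -0.73, -0.01 and 0.02 in the 3 lines, and Dtl, which helps to destroy Cdt1 in S phase, at -0.72, 0.05 and 0.43. Ccne2, a cyclin E, was lower in each line, most in line C, with 13.9, 4.30 and 13.8 CPM without and 9.85, 3.995 and 6.98 CPM with rDKK3. Its fitted value was -0.54 (SE 0.23, adjusted p = 0.623, edgeR's quasi-likelihood test).

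Of the remaining members, Cdc25a, the phosphatase that activates Cdk2, gave -0.05, 0.25 and 0.31 in lines A, B and C, and Ccne1 and E2f2 gave 0.37 and 0.43 in line A, the 2 highest values of any member there, against -0.21 and -0.56 in line C. Ccne1 and E2f2 were low, at 1.98 to 5.54 and 2.37 to 7.65 CPM in untreated samples, and their counting intervals in line A included 0. The list is completed by Orc1 and Orc6 of the origin recognition complex, Mcm10, which helps to start the helicase, Gins3, the accessory subunits Pola2, Prim2 and Pole2, the clamp loader subunits Rfc2, Rfc3 and Rfc4, and Chaf1a of CAF-1, with values in line A from -0.98 (Mcm10) to 0.05 (Rfc3) and in line C from -0.11 (Rfc2) to 0.17 (Prim2).

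Split by promoter letters, the 18 members with the E2F letters had median log2 fold changes of -0.73, -0.06 and 0.11 in lines A, B and C, and the 31 without them -0.53, -0.18 and -0.13. Lower in all 3 lines were 3 of the 18 and 16 of the 31, where 18.2% of all genes were. The split also followed role, with 7 of the 10 origin licensing genes in the first set and all 5 nucleotide supply genes in the second. The difference between the 2 sets was not tested. Mcm6 and Cdt1, whose letters are printed above, were lower in line A and higher in line C, and Cdc6, also printed above, was lower in both.

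Other genes of the pathway were taken from further lists. Of 43 replication partners, such as further polymerase subunits, checkpoint adaptors and the kinase Cdc7 with its partner Dbf4, 0 passed the test, 34 were below 0, and the medians were -0.35, -0.08 and 0.05 in lines A, B and C (fitted median -0.13). Of 26 further G1/S regulators, 24 passed the filter, 0 passed the test, and the fitted median was -0.09. Among them Ccna2, the cyclin of S and G2 phase, measured 73.4, 240 and 115 CPM without and 35.0, 174 and 81.8 CPM with rDKK3 (log2 fold change -0.67, adjusted p = 0.597, edgeR's quasi-likelihood test). Myc measured 189, 226 and 114 CPM without and 94.6, 250 and 239 CPM with rDKK3, at -1.001, 0.15 and 1.07 by line on the log2 scale. Its order of the lines was that of Ccnd1.

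Not every brake of this step was counted in all 3 lines. Cdkn2a and Cdkn2b, neighbouring genes that encode inhibitors of Cdk4 and Cdk6, stood at 18.2 and 15.005 CPM in untreated and 15.7 and 15.9 CPM in treated line A. Counts are per gene and do not tell the transcripts of Cdkn2a apart. Both genes had 0 counts in lines B and C, where the floor of 3 counts was 0.0856 to 0.247 CPM. They did not pass the filter and were not tested. Cdkn1a, which encodes p21, measured 168, 306 and 77.2 CPM without and 140, 383 and 127 CPM with rDKK3. Cdkn1b, which encodes p27, was lower in each line (-0.12, -0.35 and -0.43), as was Cdkn2d (-0.56, -0.53 and -0.63). Rb1 gave 0.13, 0.08 and 0.11, and its relatives Rbl1 and Rbl2 were lower in line A, at -0.77 and -0.15.

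Mitosis genes, which act later in the cycle, were set beside the members. Of 34, 34 had a fitted log2 fold change below 0, 29 were lower in all 3 lines, and the median was -0.56, against 42 and 19 of 49 and -0.23 for the replication and G1/S genes. By line the mitosis medians were -1.02, -0.31 and -0.30, so that line C stood below 0 in mitosis genes and near 0 in the members. By edgeR's quasi-likelihood test 0 mitosis genes passed the adjusted threshold, and 21 had an unadjusted p under 0.05. Summed, they took 1727, 3673 and 2568 CPM without and 892, 2846 and 2202 CPM with rDKK3. The difference between the 2 groups of genes was not tested.

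The second question was how far the lines themselves differed in these genes. By edgeR's quasi-likelihood test over the lines, with treatment in the model, 20 of the 49 members differed between lines at an adjusted p under 0.05, where 32.2% of all genes did. The test sets the 2 conditions of a line as its replicates, so it covers the spread between conditions and not between isolates. The mean level was highest in line C for 41 members (31.4% of all genes), lowest in line B for 28 (36.2%) and lowest in line A for 20 (33%). Mitosis genes ranked otherwise, with line B highest in 30 of 34 and line A lowest in 34 of 34.

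Tyms and Chaf1b had the smallest p of the members. Line B minus line A, the log2 difference was -2.12 for Tyms and -1.81 for Chaf1b, while line C minus line A was -0.04 and 0.03 (adjusted p = 0.00524 and 0.00785, edgeR's quasi-likelihood test). For E2f8, line C stood 3.20 above line A and 2.49 above line B (adjusted p = 0.0119, edgeR's quasi-likelihood test), the widest difference between lines among the named members. Dut was higher in line C by 0.94 over line A and 0.74 over line B (adjusted p = 0.0147), and Pcna by 0.71 and 1.03 (adjusted p = 0.0204, both by edgeR's quasi-likelihood test). Mcm5 was highest in line C and lowest in line B, 1.36 apart (adjusted p = 0.0207, edgeR's quasi-likelihood test). Ccnd1 did not pass in the same test (adjusted p = 0.227).

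**Figure D4:**
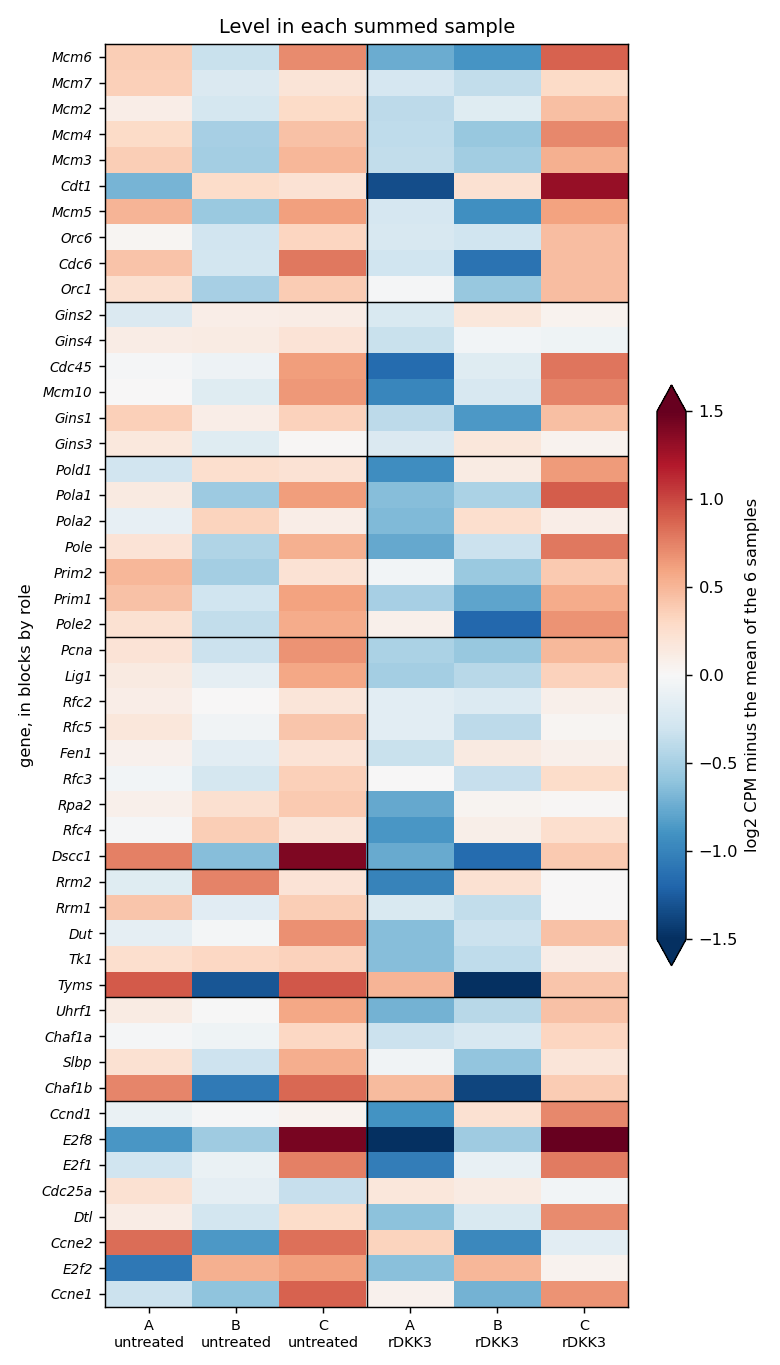
Log2 CPM of each member minus its mean over the 6 summed samples, in blocks by role (colour scale from -1.5 to 1.5, red above and blue below the mean). Treated line A is blue in most rows and treated line C red, and Tyms and Chaf1b are blue in line B in both conditions.

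These values rest on 3 lines, with 1 summed sample per line and condition, and leaving out line A brought the members' median to -0.10 with 29 of 49 below 0, leaving out line C to -0.36 with 45 below 0. With the 12 libraries taken as separate samples, 19 members were lower at an adjusted p under 0.05 and 0 were higher, against 9.72% of all genes lower and 6.93% higher, but that test takes repeat libraries for replicates. Thinned to the smallest total of the 6 samples, the median stayed at -0.23.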

How the data were processed

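RNA of 3 DDKC lines without and with rDKK3 was measured in 12 libraries. The authors aligned reads with STAR 2.7.9a to GRCm39, counted them by strand on GENCODE genes and deposited raw counts per gene. Libraries of a pair were summed, and the choice rests on the repeat check (12979 genes). Same-line samples deviated together (r = 0.786 to 0.865), and the line named in the labels was used as a block. Tests used edgeR 4.0.16 (quasi-likelihood, TMM, filterByExpr by condition, Benjamini-Hochberg, threshold 0.05) in R 4.3.3, with DESeq2 1.42.0 as an alternative, and were tested on simulated data, where the paired test on summed samples missed most genes of the smallest fold and made a larger share of false calls than its threshold. Log2 values by line are differences of log2 CPM with a prior count of 2. Named with full values were, in each role, the highest member and the one with the largest log2 fold change, plus the 6 with the widest range over lines and the 6 with the smallest p between lines. Gins4, Rpa2 and other named genes were chosen after their values were seen. The members and lists were chosen with earlier results of these data known. Nothing says that the samples came from separate cultures beyond the line, so p-values measure the spread between these samples. Intervals cover counting error only, because reads carry no molecular identifiers. Alternatives covered normalization, filters, libraries, depth, the replicate block and each line left out. Promoter sequences and transcript lengths came from GRCm39 with a GENCODE annotation. Part of the genotype and a promoter sequence are not reported here.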

Additional observations from a re-analysis of the deposited data

Results flagged for a closer look

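Several members were lower with rDKK3 in one line and higher in another, with the same sign in both libraries of each line and counting intervals that excluded 0 in both. The difference itself was not tested, because each line has 1 summed sample per condition. It was seen in 16 pairings of a gene with 2 lines, covering 12 of the 49 members, or 24.5%, against 22.6% of the 15214 genes tested, so the share of members lay near that of all genes. Line C minus line A, the difference of the log2 fold changes was 1.88 for E2f8, 1.72 for Cdt1, 1.47 for Ccnd1, 1.28 for Mcm6, 1.22 for Pole, 1.15 for Dtl, 1.06 for Pold1, 1.05 for Pola1, 0.96 for Mcm4, 0.70 for Mcm7 and 0.66 for Mcm2. Line C minus line B, it was 0.72 for Mcm6, 0.55 for Pold1 and 0.24 for Mcm7. Line B minus line A, it was 1.05 for Ccnd1 and 0.69 for Fen1. In each of the first 2 sets line C was the higher one.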

How the results depend on the processing

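The members' median was below 0 under all 14 alternatives, from -0.36 without line C to -0.10 without line A, and -0.25 without Ccnd1, a setting chosen after seeing the data. No member passed the test except where the 12 libraries were separate samples (19, and 19 with the library series). Over all genes, the calls for rDKK3 numbered 1, but 96 with DESeq2, 90 with no filter on low counts, 0 with at least 10 counts in every summed sample, 2534 and 2885 with the 12 libraries (without and with the series), and 0 to 0 with each line left out. Between lines, 4899 genes and 20 members passed, against 11402 and 11862 genes and 45 and 45 members with the 12 libraries. The cause of these shifts in the number of calls was not tested. Without the replicate block, 0 genes passed and the members' median was -0.19. The median of all genes was 0.0016 with RLE and 0.03 with library totals, against -0.01.

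Of 36 genes followed through the alternatives, the fitted log2 fold changes of 14 changed sign under some alternative, from Cdc45 at -0.32 to Cdt1 at 0.15 as reported. The other members were not followed through all alternatives. Among them Gins3 went from 0.0094 to -0.013 with the 12 libraries, and Ccne1 from 0.010 to -0.034 without the replicate block. Gins2 read -0.040 with no filter and -0.00014 and -0.00087 with the 12 libraries, E2f8 -0.0061 with no filter, and Dtl 0.032 with the lower library series and 0.012 without the replicate block. With each line left out, the ranges were Ccnd1 -0.28 to 0.47, Cdc45 -0.59 to 0.046, Cdt1 -0.33 to 0.53, Dtl -0.33 to 0.25, E2f1 -0.36 to 0.011, E2f8 -0.46 to 0.49, Fen1 -0.26 to 0.088, Gins2 -0.021 to 0.034, Mcm2 -0.21 to 0.13, Mcm3 -0.37 to 0.025, Mcm4 -0.37 to 0.12, Pola1 -0.35 to 0.18, Pold1 -0.38 to 0.15 and Pole -0.41 to 0.20.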

Other observations

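Replication-dependent histone genes, whose RNA is made in S phase without a poly(A) tail, were counted only in part. Of 67 listed, 11 passed the filter, and their fitted median log2 fold change was -0.72. By line their medians were 0.08, -0.38 and -1.13 in lines A, B and C, the reverse of the order seen in the replication and G1/S genes. H1f2, the highest of the 11, measured 72.6, 61.3 and 76.9 CPM without and 79.7, 52.3 and 16.7 CPM with rDKK3, and H2bc4 15.2, 24.5 and 20.2 CPM without and 15.99, 14.4 and 4.11 CPM with rDKK3. By edgeR's quasi-likelihood test 0 of the 11 passed the adjusted threshold and 1 had an unadjusted p under 0.05. Slbp, which binds these RNAs, was lower in all 3 lines. Whether the libraries were selected for poly(A) RNA is not given in the sources used here.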
